A study of Homo sapiens with 2 samples.

Results

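The cytochromes P450 of families 1 to 4 are heme enzymes that oxidize drugs, toxicants and fatty acids. Here 33 of these genes were taken by their symbols, together with the genes of their electron donors, POR and CYB5A, which made 35 members among 60623 gene entries. The rule took the members by name. Of the members, 20 had at least 10 counts over both libraries and were compared, as were 20431 entries in all. A further 7 members had 1 to 9 counts, and 8 members had none.

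RNA was sequenced from HepG2, a human hepatocellular carcinoma cell line with the label wild type, as 2 libraries with 1 library per group. The cells of both groups received 1 mM FFA for 24 h, a mixture of oleic and palmitic acid carried on albumin, to load them with fat. In the FFA + 9-cis-RA group 10 μM 9-cis-RA was added, an isomer of retinoic acid that binds the RXR and RAR receptors, and the records put both libraries in batch 1. The design addressed which genes respond to 9-cis-RA in fat-loaded cells. No library of cells without FFA was analysed here, and a single tumor line limits what the groups can say about liver.

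P450 enzymes sit in the endoplasmic reticulum membrane and take electrons from NADPH through the reductase POR, with cytochrome b5 as a helper for some of them. Families 1 to 3 handle mainly foreign compounds and are switched on in liver by the receptors AHR, PXR and CAR, of which PXR and CAR pair with RXR. Family 4 enzymes mostly hydroxylate fatty acids and eicosanoids at or near the end of the chain. HepG2 cells are known to keep little of the P450 expression of hepatocytes.

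The FFA library held 60821539 counts and the FFA + 9-cis-RA library 57669670, so that 3 counts, taken as the floor of detection, correspond to 0.0493 and 0.0520 CPM. Counts were divided by size factors of 1.01 and 0.990. The log2 ratio is FFA + 9-cis-RA over FFA on the log2(normalized count + 1) scale, and the counting interval after it is the exact 95% interval for how a gene's counts divide between the libraries. With 1 library per group there was no replicate error and no test, so the intervals cover counting error only and compare these libraries, not the treatments. Fewer cells that express a gene and less RNA per cell cannot be told apart in such bulk libraries.

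The 8 hepatocyte markers were all counted, with 278 to 296345 counts, and 3 of them were higher and 5 lower in the FFA + 9-cis-RA library. The summed normalized counts of this list were 925932 with FFA and 724355 with FFA + 9-cis-RA, mostly through AFP and ALB. Of the blood markers, PTPRC was at 0 in both libraries and CD3E had 1 count in each, whereas LYZ had 5883 and 3332 counts. LYZ was lower, at -0.79, and CD68 was higher, with 5 and 15 counts (log2 ratio 1.44, counting interval 0.079 to 3.43). The 4 stellate markers summed to 19.8 and 17.2 normalized counts, with LRAT at 0, and the 3 endothelial markers had 10 to 184 counts. Of the biliary markers SOX9 had 12132 and 11146 counts, and KRT7 had 15 and 8. The part of these markers in the P450 differences was not tested.

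The P450 transcripts of these cells were led by genes that are not the main drug-metabolizing enzymes of adult liver. Levels of different genes are given per length, as normalized counts per kilobase of the exonic length in the files. CYP2W1, an enzyme of fetal gut and of tumors, stood highest, with 1754 per kilobase under FFA and 1105 under FFA + 9-cis-RA. It was followed by CYP4F11, CYP4F3, CYP4F2 and CYP4F12, which encode fatty acid hydroxylases, at 378, 268, 231 and 228 per kilobase in the FFA library. CYP1A1, CYP3A5 and CYP2U1 came next, between 126.5 and 161 per kilobase. At the other end, CYP3A4, the main drug oxidase of adult liver, had 5.56 and 0.895 per kilobase. CYP2E1, which oxidizes ethanol, had 2.57 and 2.73 per kilobase. The lengths include every annotated exon and reach 9622 bases for CYP2E1 and 9817 for CYP3A5, which lowers the per-length levels of genes with long rare isoforms.

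**Figure D1:**
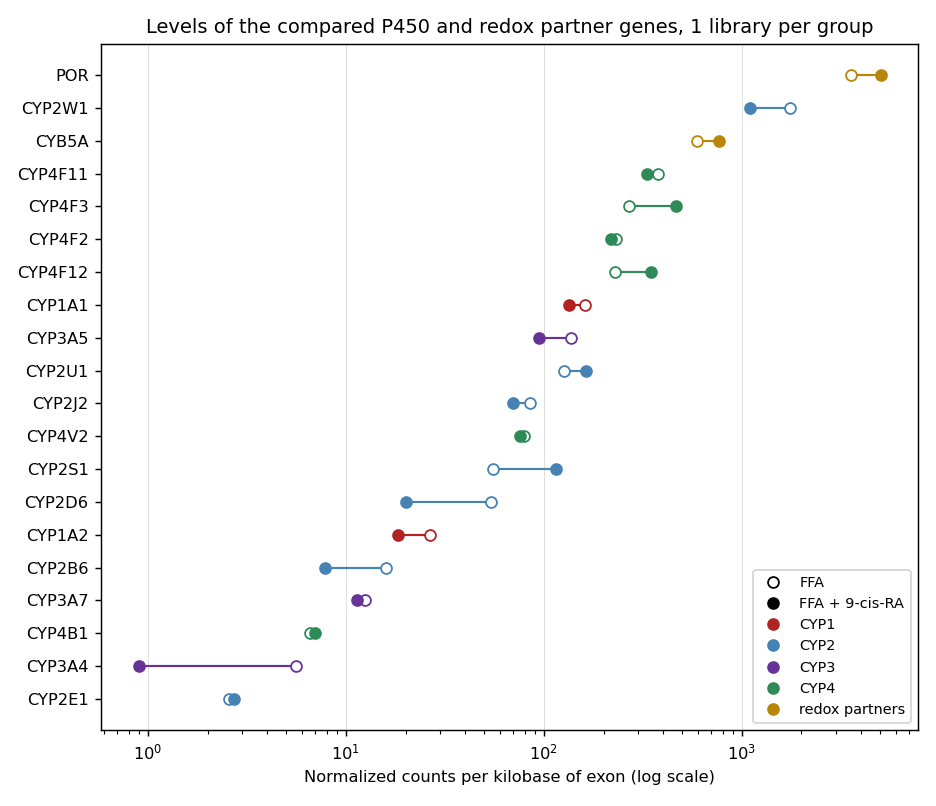
Normalized counts per kilobase of exon (log scale) of the 20 compared members in the FFA library (open circles) and the FFA + 9-cis-RA library (filled circles), colored by family, 1 library per group. POR and CYP2W1 stand at the top in both libraries, and POR moves right while CYP2W1 moves left.

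CYP2W1 took a smaller share of the P450 level in the FFA + 9-cis-RA library, and the CYP4F genes took a larger one. The per-kilobase levels of the 33 P450 members summed to 3632 with FFA and to 3197 with FFA + 9-cis-RA. CYP2W1 made up 48.3% and 34.6% of these sums. CYP4F2, CYP4F3, CYP4F11 and CYP4F12 together made up 30.4% and 42.8%. By family, CYP2 went from 57.7% to 46.5% and CYP4 from 32.8% to 45.4%, while CYP1 stayed between 4.75% and 5.17% and CYP3 went from 4.28% to 3.40%. Counting without the length gave CYP2W1 35.0% and 23.2% of the P450 counts, so the size of its share depends on the length, and the smaller share with FFA + 9-cis-RA was found either way.

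**Figure D2:**
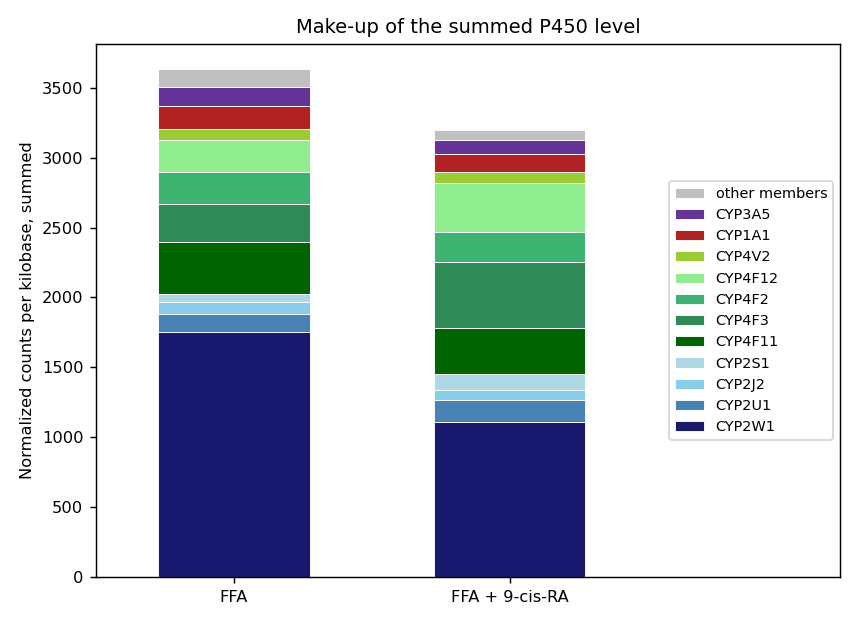
Stacked bars of normalized counts per kilobase of the P450 members in each library, with POR and CYB5A left out. The bars end at 3632 and 3197, and the CYP2W1 block shrinks from 1754 to 1105 while the CYP4F3 and CYP4F12 blocks grow.

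Among the 20 compared members, 8 were higher and 12 lower in the FFA + 9-cis-RA library, with a median log2 ratio of -0.10, against -0.020 over all compared genes. CYP2S1 was the 1 member above a log2 ratio of 1, where 3.37% of all compared genes lay. CYP2D6 and CYP3A4 were the 2 members below -1, where 4.90% of all genes lay. CYP2B6 stood at -0.997, just inside that threshold. No member had its whole interval above 1 or below -1, as 0.387% and 0.930% of all genes had.

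Differences beyond counting error were frequent among the members. The interval lay above 0 for 6 of the 20 members and for 22.5% of all compared genes, and below 0 for 9 members and 25.7% of all genes. It held 0 for 5 members, CYP2E1, CYP3A7, CYP4B1, CYP4F2 and CYP4V2. Members had more counts than many genes, and more counts give narrower intervals. Among genes with at least 50 counts, the interval lay above 0 for 6 of 18 members and 4346 of 15917 genes, and below 0 for 8 members and 4856 genes.

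**Figure D3:**
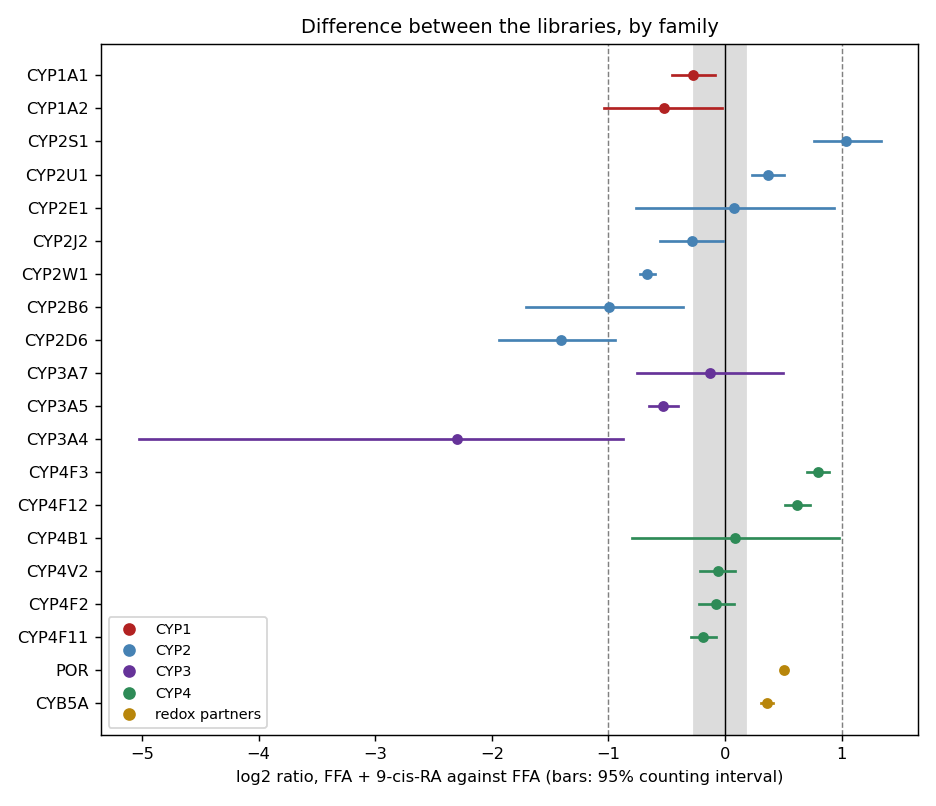
Log2 ratio, FFA + 9-cis-RA against FFA, of the 20 compared members by family, with 95% counting intervals as bars, the thresholds of 1 and -1 as dashed lines and the quartiles of all compared genes (-0.26 and 0.18) as a grey band. The compared CYP1 and CYP3 points lie left of 0, POR and CYB5A lie right of it, and CYP2 and CYP4 lie on both sides.

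The compared genes of CYP1 and CYP3 were all lower, and those of CYP2 and CYP4 went both ways. Both compared CYP1 genes and all 3 compared CYP3 genes were lower in the FFA + 9-cis-RA library, with medians of -0.40 and -0.53. Of all 20431 compared genes 10680 were lower, so such short runs say little about a family. The interval of CYP3A7 held 0, and CYP3A4 had only 19 and 3 counts. Of the 7 compared CYP2 genes 3 were higher and 4 lower, with a median of -0.285 (range -1.41 to 1.04), or -0.135 without a filter on counts. Of the 6 compared CYP4 genes 3 were higher and 3 lower, with a median of 0.011 (range -0.19 to 0.80) that fell below 0 without a filter on counts (-0.023) or with at least 50 counts (-0.064). POR and CYB5A were both higher, with a median of 0.43.

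Summed over the members of a family, counts were lower for CYP1, CYP2 and CYP3 and higher for CYP4 under FFA + 9-cis-RA. CYP1 had 632 and 501 counts in the FFA and FFA + 9-cis-RA libraries, CYP2 had 6330 and 4634, and CYP3 had 1423 and 971. Their log2 ratios were -0.31, -0.42 and -0.52. CYP4 had 5732 and 7071 counts, a log2 ratio of 0.33 (counting interval 0.28 to 0.38). Among the compared CYP4 genes only CYP4F3 (1495 and 2552 counts) and CYP4F12 (1171 and 1762) had an interval above 0. The CYP4 sum therefore does not describe the whole family. The CYP2 sum turned with a single gene: without CYP2W1 it was 1388 and 1579 counts, a log2 ratio of 0.21 (counting interval 0.11 to 0.32). All P450 members together had 14117 and 13177 counts, a log2 ratio of -0.072, and 0.17 without CYP2W1.

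CYP1 genes encode enzymes that oxidize planar aromatic compounds, and AHR controls them. CYP1A1 (ENSG00000140465, chromosome 15, 74719542 to 74725536), which acts on polycyclic hydrocarbons, had 547 counts with FFA and 444 with FFA + 9-cis-RA. It was lower in the FFA + 9-cis-RA library, with a log2 ratio of -0.27 (counting interval -0.46 to -0.090). CYP1A2, a liver enzyme that oxidizes caffeine and arylamines, had 84 and 57 counts. It was lower too, at -0.52 (counting interval -1.04 to -0.030). The genes lie within 37.1 kb of each other on opposite strands, and the difference between their log2 ratios, CYP1A2 minus CYP1A1, was -0.26 (counting interval -0.80 to 0.28). CYP1B1, an estradiol hydroxylase found mostly outside the liver, had 1 count with FFA and 0 with FFA + 9-cis-RA.

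The CYP2 drug and toxicant enzymes were sparsely counted, and CYP2D6 and CYP2B6 were lower under FFA + 9-cis-RA. CYP2D6 (ENSG00000100197, chromosome 22, 42126499 to 42130881), which metabolizes many antidepressants and opioids, had 132 counts with FFA and 48 with FFA + 9-cis-RA. Its log2 ratio of -1.41 (counting interval -1.94 to -0.95) was the lowest among members with at least 50 counts. Of the stretches of 100 bases in its annotated transcripts 13.5% also occur in other genes, nearly all in the pseudogene CYP2D7, and reads that map to several places were not counted. CYP2D7 itself had 206 and 194 counts, a log2 ratio of -0.059 (counting interval -0.35 to 0.23).

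CYP2B6, a CAR target that metabolizes bupropion and efavirenz, had 60 and 29 counts. Its log2 ratio was -0.997 (counting interval -1.71 to -0.36), and it did not differ from that of CYP2D6 beyond counting error (difference -0.41, counting interval -1.26 to 0.45). CYP2E1, on chromosome 10, had 25 and 26 counts, a log2 ratio of 0.081 (counting interval -0.77 to 0.94). That interval reaches well to both sides of 0, so no direction can be read for CYP2E1.

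The remaining genes of this group were at or near the floor. CYP2C8, which oxidizes paclitaxel, had 6 and 2 counts. CYP2C19, which activates clopidogrel, had 0 and 3, and CYP2C18, a close relative with little known activity, had 1 and 1. An overlapping entry on the same strand covers 40.3% of the exonic bases of CYP2C18 and 23.4% of those of CYP2C19, where reads were not counted. CYP2A6, the nicotine oxidase, its relatives CYP2A7 and CYP2A13, and CYP2F1, an enzyme of the lung, were at 0 in both libraries. These zeros allow up to 0.0493 CPM with FFA and 0.0520 with FFA + 9-cis-RA. CYP2A6 and CYP2A7 share 8.42% and 6.94% of their stretches of 100 bases with other genes, so reads of at least 100 bases could have been counted over most of each transcript.

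The other CYP2 genes, which encode enzymes of fatty acids or of tissues other than liver, moved apart. CYP2W1 (ENSG00000073067, chromosome 7, 983181 to 989640) had 4942 counts with FFA and 3055 with FFA + 9-cis-RA. It was lower in the FFA + 9-cis-RA library, with a log2 ratio of -0.67 (counting interval -0.73 to -0.60), and its level fell from the 92.2 to the 87.7 percentile of compared genes. CYP2S1 (ENSG00000167600, chromosome 19, 41193210 to 41207539), an enzyme of epithelia outside the liver, had 152 and 308 counts. It was 2.06-fold higher under FFA + 9-cis-RA, with a log2 ratio of 1.04 (counting interval 0.76 to 1.34). The difference between the log2 ratios of CYP2S1 and CYP2W1 was 1.71 (counting interval 1.42 to 2.01).

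CYP2U1, a hydroxylase of long-chain fatty acids on chromosome 4, had 756 and 956 counts. It was higher in the FFA + 9-cis-RA library, at 0.37 (counting interval 0.23 to 0.51). CYP2J2, an epoxygenase of arachidonic acid on chromosome 1, had 256 and 206 counts, and was lower at -0.285 (counting interval -0.56 to -0.016). CYP2S1 thereby passed CYP2J2 in the order of levels, as 55.5 against 85.3 per kilobase with FFA became 114.6 against 69.96 with FFA + 9-cis-RA.

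The bases upstream of CYP2S1 and CYP2W1 are shown because they had the highest log2 ratio and the largest difference in counts among the CYP2 members. They come from RefSeq windows of the 250 bases before the gene start on GRCh38.p14, written 5′ to 3′ on the strand of the gene and ending before any exon in the files. Capitals mark the letters of a nuclear receptor half-site (AGGTCA or its complement TGACCT) and of a TATA box (TATAAA or TTTATA). The CYP2S1 stretch is chr19:41192969.0-41193209.0 and the CYP2W1 stretch chr7:982931.0-983180.0, both on the plus strand.
CYP2S1: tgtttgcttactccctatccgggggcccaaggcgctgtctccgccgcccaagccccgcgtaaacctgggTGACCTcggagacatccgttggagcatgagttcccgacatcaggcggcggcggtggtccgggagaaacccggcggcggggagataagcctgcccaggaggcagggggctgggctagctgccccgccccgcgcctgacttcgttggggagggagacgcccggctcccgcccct
CYP2W1: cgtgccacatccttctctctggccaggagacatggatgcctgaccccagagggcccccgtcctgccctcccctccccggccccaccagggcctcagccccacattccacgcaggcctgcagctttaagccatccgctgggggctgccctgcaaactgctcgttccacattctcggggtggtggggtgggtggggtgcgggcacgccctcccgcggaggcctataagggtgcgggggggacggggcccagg
CYP2S1 held TGACCT 181 to 176 bases before its start, and neither window held TATAAA. Both were rich in G and C, at 69.6% and 70.4%, against a median of 58.0% over 35116 windows.

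CYP3A genes encode the main drug oxidases of the liver and are targets of PXR. CYP3A5 (ENSG00000106258, chromosome 7, 99648194 to 99679998), a form that many people lack, carried most of the CYP3 counts, with 1354 with FFA and 921 with FFA + 9-cis-RA. It was lower in the FFA + 9-cis-RA library, with a log2 ratio of -0.53 (counting interval -0.65 to -0.41). CYP3A4, the main adult form, had 19 and 3 counts. Its log2 ratio was -2.30 (counting interval -5.03 to -0.87), an interval so wide because 1 library held only 3 counts.

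CYP3A7, the fetal form, had 48 and 43 counts, a log2 ratio of -0.13 (counting interval -0.76 to 0.49). Other entries on the same strand cover 41.7% of its exonic bases, where reads were not counted. The difference between CYP3A5 and CYP3A7 was -0.40 (counting interval -1.03 to 0.24), so a like change in both cannot be told from a difference at these counts. CYP3A43, a form of low activity, had 2 and 4 counts. Per length, CYP3A5 stood 11.0 times above CYP3A7 with FFA and 8.31 times with FFA + 9-cis-RA. The long exonic length of CYP3A5 lowers these ratios, and the CYP3A7 bases where reads were not counted raise them, so their size is uncertain.

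The stretches upstream of CYP3A5, CYP3A7 and CYP3A4, all on the minus strand, are shown because the genes lie within 218 kb and share a half-site. They are chr7:99679999.0-99680246.0, chr7:99735197.0-99735446.0 and chr7:99784249.0-99784434.0.
CYP3A5: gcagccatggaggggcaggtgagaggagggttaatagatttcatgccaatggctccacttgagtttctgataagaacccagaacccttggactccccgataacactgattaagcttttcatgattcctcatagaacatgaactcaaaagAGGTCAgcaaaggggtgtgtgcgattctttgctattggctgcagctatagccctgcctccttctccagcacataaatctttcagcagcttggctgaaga
CYP3A7: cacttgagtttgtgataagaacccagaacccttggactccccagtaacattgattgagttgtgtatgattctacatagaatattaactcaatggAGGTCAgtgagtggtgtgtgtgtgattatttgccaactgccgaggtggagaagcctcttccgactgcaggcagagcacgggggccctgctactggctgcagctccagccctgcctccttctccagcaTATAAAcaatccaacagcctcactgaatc
CYP3A4: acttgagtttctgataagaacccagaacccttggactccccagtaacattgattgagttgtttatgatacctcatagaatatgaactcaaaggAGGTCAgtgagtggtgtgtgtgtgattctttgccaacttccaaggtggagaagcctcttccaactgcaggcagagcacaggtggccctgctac
AGGTCA lies 101 to 96 bases before the CYP3A5 start, 156 to 151 before the CYP3A7 start and 157 to 152 before the CYP3A4 start. A TATAAA lies 29 to 24 bases before the starts of CYP3A7 and CYP3A4 in RefSeq, and the CYP3A4 copy is left out here because it falls in an exon of the files. Over the full windows, CYP3A7 and CYP3A4 were identical at 236 of 250 bases (94.4%), and CYP3A5 was identical to them at 60.0% and 65.2%. The CYP3A5 half-site lies nearer its start, so the shared stretch is offset and part of each window has no counterpart. This lowers the CYP3A5 percentages, which do not measure how alike the stretches before the half-site are. Windows from different families, for the genes whose stretches are printed here and with a further CYP4F11 start, were aligned in the same way. They were identical at 46.4% to 58.8% of bases.

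Across the 27 members with a RefSeq window, 8 held the half-site: CYP2B6, CYP2E1, CYP2S1, CYP3A4, CYP3A5, CYP3A7, CYP4V2 and CYP4X1. Of all 35116 windows 12.1% held it. Those of them that were compared include CYP2S1, which was higher, CYP2B6, CYP3A4 and CYP3A5, which were lower, and CYP2E1, CYP3A7 and CYP4V2, whose intervals held 0. TATAAA was held by 13 members and 10.7% of all windows. The AHR element core, GCGTG or CACGC, was held by 7 members, CYP1A1 and CYP2W1 among them, and by 32.2% of all windows. CCAAT or ATTGG was held by 13 members and 32.0% of all windows. Both strands were searched, and a match to these letters is a description of the window, not a site.

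Family 4 split within its CYP4F cluster. CYP4F3 (ENSG00000186529, chromosome 19, 15640897 to 15662825), which inactivates leukotriene B4 by hydroxylation, had 1495 counts with FFA and 2552 with FFA + 9-cis-RA. It was 1.74-fold higher under FFA + 9-cis-RA, with a log2 ratio of 0.80 (counting interval 0.71 to 0.89). CYP4F12 (ENSG00000186204, 15673018 to 15697174), a hydroxylase of fatty acids and of some antihistamines, had 1171 and 1762 counts. It was 1.53-fold higher, at 0.62 (counting interval 0.51 to 0.73).

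CYP4F2 (ENSG00000186115, 15878023 to 15898077), a hydroxylase of vitamin K and arachidonic acid, had 722 and 673 counts. Its log2 ratio was -0.074 (counting interval -0.23 to 0.080). CYP4F11 (ENSG00000171903, 15912367 to 15934867), which also acts on vitamin K and on fatty acids, had 1537 and 1325 counts. It was lower in the FFA + 9-cis-RA library, at -0.19 (counting interval -0.29 to -0.080).

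The split exceeded counting error in each pair across it. CYP4F3 minus CYP4F2 was 0.87 (counting interval 0.69 to 1.05), CYP4F3 minus CYP4F11 was 0.985 (0.84 to 1.13), CYP4F12 minus CYP4F2 was 0.69 (0.50 to 0.88), and CYP4F12 minus CYP4F11 was 0.80 (0.65 to 0.96). Within the pairs the differences were smaller, at 0.18 for CYP4F3 minus CYP4F12 (counting interval 0.039 to 0.325) and 0.11 for CYP4F2 minus CYP4F11 (counting interval -0.075 to 0.30). With FFA the order per length was CYP4F11, CYP4F3, CYP4F2 and CYP4F12. With FFA + 9-cis-RA it was CYP4F3, CYP4F12, CYP4F11 and CYP4F2, and CYP4F3 went from 1.16 to 2.13 times CYP4F2.

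Among CYP4F3, CYP4F12, CYP4F2 and CYP4F11, the split went with position and strand, and a link to either was not tested. The cluster spans 426 kb, and CYP4F3 and CYP4F12 are neighbors on the plus strand, 132 to 189 kb from its first base. CYP4F2 and CYP4F11 are neighbors on the minus strand, 369 to 426 kb from it. Between CYP4F2 and CYP4F11 lie processed pseudogenes on the minus strand, for which no counting intervals were computed and no direction is read. They are ENSG00000267056, with 232 and 252 counts (log2 ratio 0.146), and ENSG00000267218, with 13 and 27 (log2 ratio 1.03). Between the pairs lie, among other entries, olfactory receptor genes with at most 1 count and the long noncoding RNA UCA1, which had 246 and 350 counts (log2 ratio 0.53). CYP4F8, a prostaglandin hydroxylase of the seminal vesicle, and CYP4F22, a skin enzyme of very long fatty acids, are on the plus strand in the same cluster and were at 0 in both libraries. CYP4F2 and CYP4F3 share 2.56% and 1.56% of their stretches of 100 bases with each other, and CYP4F11 and CYP4F12 share none with any gene. The reads lost to near copies were not measured, and the read length is not given.

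**Figure D4:**
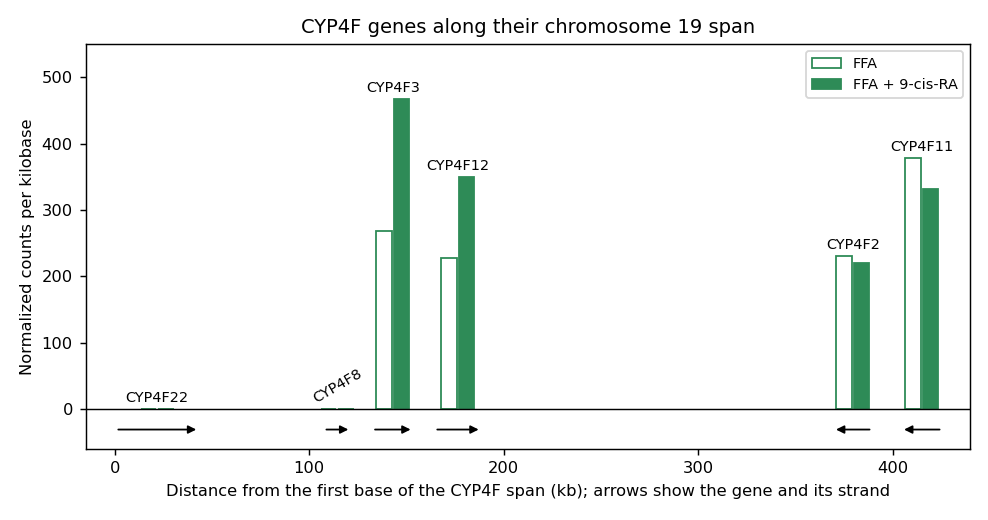
Normalized counts per kilobase of the 6 CYP4F genes against their distance (kb) from the first base of the cluster, FFA as open bars and FFA + 9-cis-RA as filled bars, 1 library each, with arrows for gene extent and strand. The filled bar is taller for CYP4F3 and CYP4F12 on the left and shorter for CYP4F2 and CYP4F11 on the right.

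The upstream stretches of CYP4F3, CYP4F2 and CYP4F11 are shown to compare genes within and across the split, CYP4F12 having no window. They are chr19:15641062.0-15641293.0 on the plus strand, and chr19:15898078.0-15898324.0 and chr19:15934868.0-15935117.0 on the minus strand. The RefSeq start of CYP4F3 lies 415 bases inside the gene as the files annotate it, and the RefSeq table has 2 starts for CYP4F11, of which the outer is shown.
CYP4F3: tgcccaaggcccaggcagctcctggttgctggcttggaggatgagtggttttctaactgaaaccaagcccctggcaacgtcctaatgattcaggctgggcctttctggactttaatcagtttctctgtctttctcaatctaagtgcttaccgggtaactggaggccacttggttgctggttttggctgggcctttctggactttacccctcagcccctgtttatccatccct
CYP4F2: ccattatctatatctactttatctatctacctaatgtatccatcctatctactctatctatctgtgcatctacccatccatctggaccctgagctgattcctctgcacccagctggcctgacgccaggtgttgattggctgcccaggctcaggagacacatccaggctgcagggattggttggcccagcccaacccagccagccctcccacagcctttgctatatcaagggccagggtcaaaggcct
CYP4F11: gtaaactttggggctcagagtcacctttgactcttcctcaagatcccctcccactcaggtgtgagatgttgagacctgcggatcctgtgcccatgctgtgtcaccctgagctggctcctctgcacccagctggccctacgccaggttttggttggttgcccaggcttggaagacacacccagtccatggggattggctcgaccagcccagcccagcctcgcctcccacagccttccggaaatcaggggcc
None of these holds AGGTCA or TATAAA. The full windows of CYP4F2 and of the outer CYP4F11 start were identical at 70.4% of bases, and those of CYP4F3 and the inner CYP4F11 start at 70.0%. CYP4F3 and CYP4F2 were identical at 54.4%, within the range of windows from different families.

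The rest of family 4 showed no difference beyond counting error. CYP4V2, a fatty acid hydroxylase that is mutated in Bietti crystalline dystrophy, had 781 and 733 counts, a log2 ratio of -0.064 (counting interval -0.21 to 0.083). CYP4B1, an enzyme of the lung, had 23 and 24 counts, a log2 ratio of 0.085 (counting interval -0.80 to 0.98). CYP4X1, a brain enzyme, had 2 and 2 counts, and CYP4Z1, of the mammary gland, had 1 and 0. CYP4A11, the classical PPARα target of the family, and CYP4A22 were at 0 in both libraries. They share 13.9% and 15.6% of their stretches of 100 bases with each other, which leaves most of each transcript countable for reads of at least 100 bases.

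The electron donors POR and CYB5A were higher under FFA + 9-cis-RA. POR (ENSG00000127948, chromosome 7, 75899200 to 75986855) had 21786 counts with FFA and 30308 with FFA + 9-cis-RA. It was 1.42-fold higher, a log2 ratio of 0.50 (counting interval 0.48 to 0.53), and its level went from the 96.7 to the 98.0 percentile. CYB5A, cytochrome b5, had 5569 and 7006 counts and was 1.28-fold higher, at 0.36 (counting interval 0.31 to 0.41). POR exceeded CYB5A in this by 0.145 (counting interval 0.088 to 0.20). Per length, POR stood at 0.983 of the summed P450 members with FFA and at 1.58 of them with FFA + 9-cis-RA. Without CYP2W1, an alternative chosen after the data were seen, the P450 sum was higher with FFA + 9-cis-RA (1878 and 2092 per kilobase), and POR stood at 1.90 and 2.42 times that sum.

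**Figure D5:**
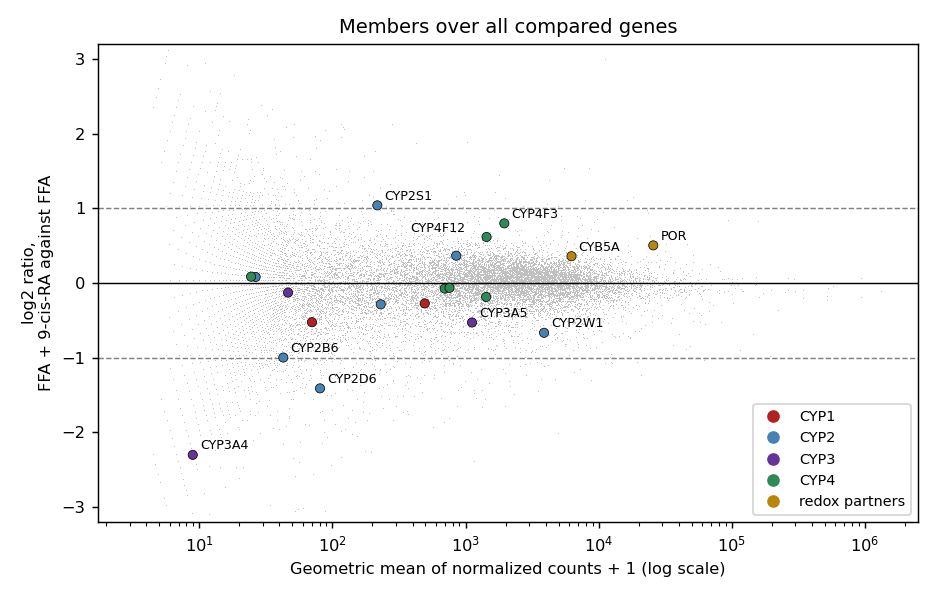
Log2 ratio against the geometric mean of normalized counts + 1 (log scale) for the 20431 compared genes (grey, with values beyond the axis not drawn) and the 20 compared members (colored by family, 10 of them named). CYP2D6, CYP2B6 and CYP3A4 lie low at few counts, while CYP2W1, CYP3A5, CYP4F3, CYP4F12 and POR lie away from 0 where counts are high.

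The receptors that control these genes were well counted apart from CAR. AHR had 2820 and 2756 counts, a log2 ratio of -0.0055 (counting interval -0.082 to 0.071). NR1I2, the gene of PXR, had 1508 and 1173 counts and was lower at -0.33 (-0.446 to -0.22), and NR1I3, the gene of CAR, had 13 and 18 counts. RXRA, the partner of both and a receptor of 9-cis-RA, had 8291 and 5978 counts and was lower at -0.44. HNF4A, a regulator of liver genes, had 24238 and 21509 counts (-0.14), and PPARA, the fatty acid receptor, had 2403 and 2613 (0.15). Of the 21 regulators compared, the interval lay above 0 for 9 and below 0 for 8, with a median of -0.0055. Over all compared genes it lay above 0 for 22.5% and below 0 for 25.7%. Most regulators were well counted, which narrows their intervals and raises such numbers. The ends with at least 100 counts were NR1H4, the bile acid receptor FXR, at -0.84 and NR0B2, the corepressor SHP, at 0.89.

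Other targets of these receptors, outside the P450s, moved both ways. Of the 5 AHR targets compared, 2 intervals lay above 0 and 1 below, and those with at least 100 counts ran from -0.31 for ALDH3A1 to 0.27 for SLC7A5. Of the 10 PXR and CAR targets compared, 3 lay above 0 and 6 below. SULT2A1, a sulfotransferase of steroids and bile acids, had 18439 and 8536 counts (-1.08), and UGT1A1, the bilirubin glucuronosyltransferase, had 1086 and 2874 (1.43, counting interval 1.33 to 1.53). The UGT1A genes share exons, so the count of UGT1A1 is uncertain. AHRR is also among the regulators and ALAS1 among the heme genes. Of the 10 PPARα targets compared, 4 lay above 0 and 5 below. Over all compared genes the shares were 22.5% above and 25.7% below, and many of these targets had high counts and so narrow intervals. FABP1, a fatty acid carrier, had 1349 and 2871 counts, a log2 ratio of 1.12 (counting interval 1.02 to 1.21).

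The supply of electrons and heme beyond the members showed no single direction. Of the 9 compared electron transfer genes 2 lay above 0 and 5 below, with FDXR, the mitochondrial reductase, at -0.685 and CYB5R3, the reductase of cytochrome b5, at 0.15. Of the 12 heme genes 7 lay above 0 and 2 below, with a median of 0.12. Over all compared genes the shares were 22.5% above and 25.7% below, and most genes of both lists had high counts and so narrow intervals. UROD, an enzyme of heme synthesis, was lowest at -0.33, and HMOX1, which breaks heme down, was highest at 0.94, with 7806 and 14703 counts.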

How the data were processed

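RNA sequencing of HepG2 cells treated with FFA without or with 9-cis-RA gave 2 libraries, 1 in each group. Raw fragment counts per gene were deposited by the authors, from featureCounts version 2.0.1 in paired and reverse-stranded mode (strand setting 2), without multimapping reads and without reads that touch several genes, so genes with close copies or shared exons are undercounted. The build was GRCh38, per the labels. The aligner, annotation release and read length are not given in the sources used here.

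Entries were matched by Ensembl identifier to symbols (60295 of 60623) and to GENCODE release 29 (58516, used for gene types and shared stretches). Exon overlap was taken from the exons deposited with the counts. Size factors came from DESeq2 version 1.42.0, with TMM factors from edgeR version 4.0.16 as an alternative, in R version 4.3.3. The comparison used a pseudocount of 1, at least 10 counts over both libraries, a threshold of 1 and Clopper-Pearson 95% intervals (Python 3.11.15, numpy 2.4.6, pandas 2.3.3, scipy 1.17.1, matplotlib 3.10.9). The pseudocount draws low genes toward 0. Without residual degrees of freedom no p-value was computed. Intervals and floors (3 counts) cover counting error only.

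Every member was named, with intervals for those with at least 50 counts. Of the other lists, the named genes were those with a whole interval past the threshold, the ends of each list among genes with at least 100 counts, and AHR, NR1I2, NR1I3, RXRA, HNF4A and PPARA. Of these, 1 gene is not reported here. The intervals of CYP3A4 and CYP4B1, and CYP2D7, CYP2R1, UCA1, the pseudogenes between CYP4F2 and CYP4F11 and the markers, were added after their values were seen. Members and lists were chosen with earlier results of these data known. Windows were aligned globally (match 1, mismatch -1). The steps were tested on simulated data. Protein sequences were not analysed here, nor were the promoters of CYP1B1, CYP2C18, CYP2D6, CYP2F1, CYP4A11, CYP4A22, CYP4F12 and POR.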

Additional observations from a re-analysis of the deposited data

How the results depend on the processing

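All 20 compared members kept the sign of their log2 ratio under scaling by TMM or total counts and with a pseudocount of 0.1 or 5. The same held with no filter on counts, a minimum of 50 counts where they passed it, and protein-coding genes only. A filter leaves a gene's own ratio unchanged, and a new scaling shifts all genes by nearly the same amount, so the kept signs say little. For CYP2E1, CYP3A7, CYP4B1, CYP4F2 and CYP4V2, whose intervals held 0, the sign gives no direction. The log2 ratio ran from -2.60 to -1.57 for CYP3A4 and from 1.02 to 1.09 for CYP2S1, and that of POR was 0.55 with total counts. CYP2B6 ran from -1.02 to -0.91, which put 3 members in place of 2 below -1 with a pseudocount of 0.1 or protein-coding genes only. Without a filter 2 members were above 1, the added one being CYP2C19 with 0 and 3 counts, and 3 were below -1, the added one being CYP2C8. A minimum of 50 counts left 1 below -1, since CYP3A4 no longer passed. With the whole interval past the threshold there were 0 above 1 and 0 below -1. The CYP3 median was -0.33 without a filter (4 genes) and with at least 50 counts (2 genes). The CYP2 median was -0.135 without a filter, and the CYP4 median, at 0.011, turned to -0.023 when unfiltered and to -0.064 with the minimum of 50. The median of all compared members was -0.052 with total counts. Without the length, CYP2W1 made up 35.0% of the P450 counts with FFA and 23.2% with FFA + 9-cis-RA. No scaling moved the median of all genes by more than 0.1 on the log2 scale, from -0.020 to 0.029 with total counts. Leaving out a replicate was not run, since each group has 1 library. No paired analysis was possible because each group has 1 library. Depth limits the members under 10 counts, for which no direction can be read.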

Other observations

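P450 genes outside the members held the largest differences of the superfamily. Of 19 compared entries of families 5 to 51, some of them pseudogenes, 8 had an interval above 0 and 2 below 0. Their median log2 ratio was -0.044. Over all compared genes the interval lay above 0 for 22.5% and below 0 for 25.7%. CYP26A1, a retinoic acid hydroxylase, had 4 and 709 counts in the FFA and FFA + 9-cis-RA libraries (log2 ratio 7.17, counting interval 6.13 to 9.38). CYP24A1, the vitamin D hydroxylase, had 4041 and 31195 counts (2.98, 2.93 to 3.02). CYP7A1, the rate-limiting enzyme of bile acid synthesis, had 48 and 1 counts (-4.59, counting interval -10.9 to -3.01), and CYP8B1, which acts in the same pathway, had 118 and 92 (-0.33, -0.74 to 0.074).

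Of 48 further entries of families 1 to 4, mostly pseudogenes, 36 were at 0 in both libraries and 8 were compared, with a median of -0.225. CYP2R1, a vitamin D hydroxylase, had 22 and 53 counts (1.26, counting interval 0.55 to 2.08). The pseudogene CYP2AB1P had 33 and 78 counts (1.24, 0.66 to 1.90), and CYP4F34P had 74 and 56 (-0.37, -0.90 to 0.15).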
